A study of Homo sapiens with 10 samples.

Results

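The earliest H3K27ac changes after dTAG47, a ligand meant to remove the fusion protein, were read from 4 of the 10 samples of the series. These were 2 libraries of Rh30 cells given DMSO and 2 of cells given 500 nM dTAG47 for 2 h. Rh30 is an established human alveolar rhabdomyosarcoma line, and all cells, controls included, carried PAX3-FOXO1-FKBP, in which FKBP serves as a degron. The ligand dTAG47 brings this degron to the cell's ubiquitin machinery. DMSO is the solvent. The labels give it no time, so time in culture and time of treatment cannot be told apart. Chromatin immunoprecipitation and sequencing measured H3K27ac, acetylated lysine 27 of histone H3, in 42067 windows of a common peak set, nearly all about 400 bases wide. Counts inside the windows totalled 3540104 and 3546020 for DMSO and 3616695 and 4744596 for 2 h. Fusion protein was not measured in these counts, so its loss at 2 h was not checked here.

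PAX3-FOXO1 joins the paired domain and homeodomain of PAX3 to the activation domain of FOXO1, and it drives alveolar rhabdomyosarcoma from distal enhancers. H3K27ac is laid down by the acetyltransferases p300 and CBP at active enhancers and promoters. It is removed by histone deacetylases.

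The windows carry hg19 coordinates and no gene names. No hg19 annotation was used: gene names below rest on hg19 gene positions written from general knowledge, not read from a file, and they are approximate. Of 212 spans written, 184 had the length of the RefSeq GRCh38 gene within 1 kb or 5%, 25 matched at one end and 3 were left out. Every statement that a window lies in, within 1 kb of or within 50 kb of a gene rests on these positions, and genes not written down could lie nearer to a window. Names outside the gene lists were entered after called windows had been seen.

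At 2 h, H3K27ac was lower at 431 windows and higher at 81, of 41791 tested (1.03% and 0.194%; edgeR's quasi-likelihood test, Benjamini-Hochberg adjusted p under 0.05). The lower windows had a median log2 change of -0.79, a level of 0.577 of DMSO, and 130 of them fell by 2-fold or more. The higher windows had a median log2 change of 0.61, or 1.52-fold, and 6 of them rose by 2-fold or more. The median over all windows was 0.00, with quartiles of -0.15 and 0.16. Lower windows held 1.45% of the DMSO signal and 0.952% of the 2 h signal, and higher windows went from 0.234% to 0.330%. Windows whose 2 h libraries lay wholly on one side of the DMSO libraries made up 40% of all windows.

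These counts depended on the test. DESeq2's Wald test called 24 windows lower and 0 higher. Without adjustment, DESeq2 put 837 lower windows and 336 higher ones under the same threshold, together 2.79% of windows, a share below the 5% that uniform p-values give. DESeq2 left 8156 windows without an adjusted p. The count by edgeR was 2682 lower windows (6.42%) and 1969 higher (4.71%). Its median dispersion was 0.0259, against 0.00129 for edgeR. All 24 were among edgeR's calls. Leaving out 1 library in turn left 158 lower calls without DMSO A, 106 without DMSO B, 253 without 2 h A and 131 without 2 h B. The matching higher calls numbered 20, 13, 50 and 17.

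**Figure D1:**
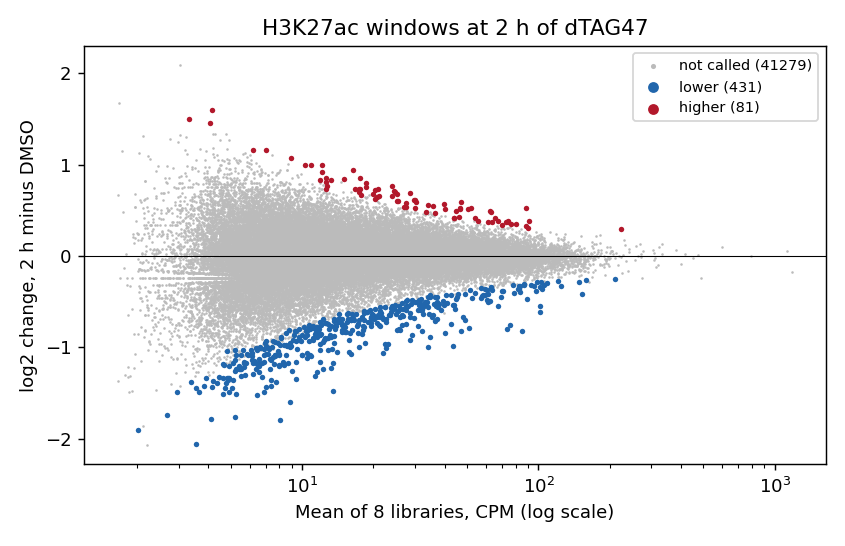
Each point is 1 of the 41791 tested windows, by mean of the 8 libraries in CPM on a log axis and by log2 change from DMSO to 2 h. Called windows below the line number 431 and above it 81, and the calls move closer to 0 as signal rises.

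Among the domains with most lower calls were ASS1 and PRDM12 on chromosome 9. ASS1 encodes argininosuccinate synthase of the urea cycle, and PRDM12 a PR-domain regulator of neural identity; both are listed here as PAX3-FOXO1 targets. Levels are given as CPM, read counts scaled to a common library total with TMM factors. The window at chr9:133355271-133355671 in ASS1 read 133.2 and 134.7 in DMSO and 72.4 and 78.5 at 2 h. The groups did not overlap, the log2 change was -0.82 ± 0.08 (SE) and the adjusted p 1.16e-13 by edgeR. It was 8.82e-06 by DESeq2. All 5 ASS1 windows in this domain of 14.4 kb were called lower, with log2 changes of -0.53 to -0.82. A domain here runs from its first to its last called window, so that choice raises the share called in every domain. Of the 15 windows within 50 kb of ASS1, 5 were lower, and the median log2 change over the 15 was -0.1. Of these 5, the ones at chr9:133355271-133355671 and chr9:133348832-133349232 stayed called in every fit that left out 1 library.

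At PRDM12, 5 of 6 windows in 13.4 kb were called lower. The window at chr9:133540074-133540474, beside the gene's start, read 130.1 and 117.6 in DMSO and 78.7 and 68.7 at 2 h. Its log2 change was -0.76 ± 0.09 and the adjusted p 6.44e-12 by edgeR and 8.79e-05 by DESeq2. Another called window of this domain, at chr9:133536055-133536455, read 117.3 and 117.9 in DMSO, then 67.7 and 67.6 at 2 h. At both windows each 2 h value was below each DMSO value. The window at chr9:133547602-133548002 inside the same domain read 12.8 and 15.6 in DMSO and 15.1 and 14.7 at 2 h, and was not called. Summed over all 10 windows within 50 kb of PRDM12, signal at 2 h was 70.0% of DMSO, and over the 15 at ASS1 it was 80.5%.

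The domain with most called windows lay on chromosome 6 between CDC5L and SUPT3H, at chr6:44623502-44680365. There 6 of 13 windows were called lower and 12 of 13 had a negative log2 change, with a median of -0.46 over the 13. Summed CPM was 455.2 and 480.4 in DMSO and 354.2 and 323.0 at 2 h. The window at chr6:44627664-44628064 fell from 43.6 and 57.1 to 29.4 and 26.0 CPM, a log2 change of -0.87 ± 0.13 (edgeR adjusted p = 5.29e-07; DESeq2 adjusted p = 0.0499). The other 5 lower windows of this domain lost their call in at least 1 fit without a library.

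**Figure D2:**
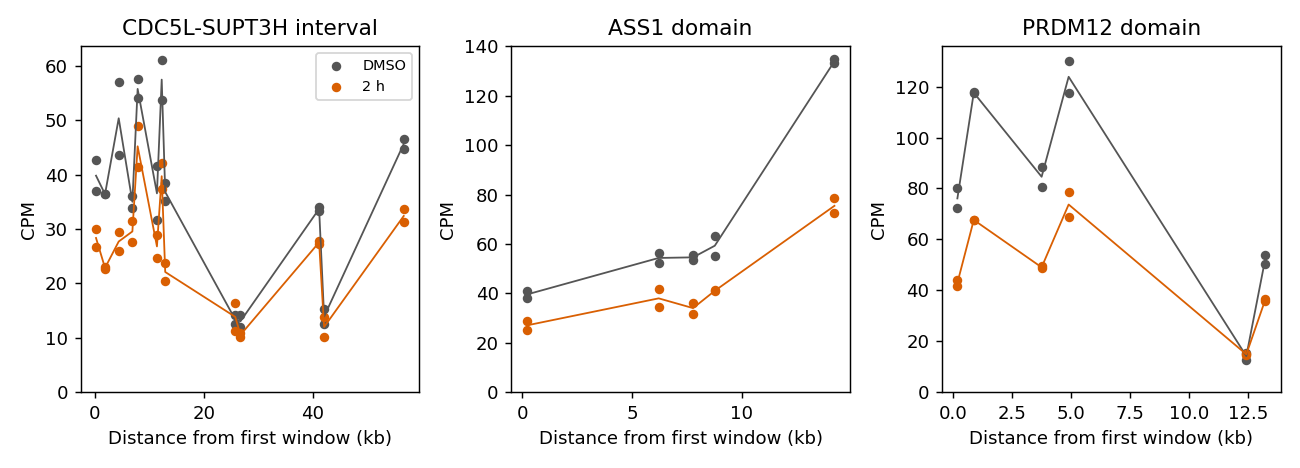
Points are CPM of single libraries and lines the mean of 2, for each window of 3 lower domains, by distance from the domain's first window in kb. The 2 h points lie below the DMSO points at all 5 ASS1 windows and at 5 of 6 PRDM12 windows.

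Other lower domains lay at SEZ6 and PIPOX (4 of 9 windows), TMCO4 (4 of 9), NCS1 and HMCN2 (3 of 8), FGGY (3 of 10), between GRIFIN and LFNG (3 of 3), LRRC10B (3 of 3) and ADAMTS1 and ADAMTS5 (3 of 7). SEZ6 is a neuronal transmembrane protein, NCS1 a calcium sensor and FGGY a carbohydrate kinase. At SEZ6 the window chr17:27296646-27297046 read 55.2 and 58.2 in DMSO and 31.6 and 29.9 at 2 h, a log2 change of -0.89 ± 0.12 (edgeR adjusted p = 2.36e-08). PIPOX, a peroxisomal sarcosine oxidase, had a lower window at chr17:27364932-27365332, with 70.6 and 65.3 CPM in DMSO and 41.6 and 44.0 at 2 h. The window at the PIPOX start itself, chr17:27369923-27370323, gave -0.11 ± 0.10 and was not called. Called windows thus stood on both sides of a start window that did not pass the test.

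Among the 34 PAX3-FOXO1 target genes, 314 windows lay in or within 50 kb of a gene. Of these, 26 were lower (8.28%, against 1.03% of all windows) and 1 was higher (0.318%, against 0.194%). The median log2 change was -0.07 over these windows and 0.00 over all. The list was made with earlier results of these data known, and neighbouring windows share a locus, so this count is not independent evidence of its direction. The 26 windows belonged to 12 genes, and 11 of the 26 stayed called whichever library was left out. DESeq2 called 8 of them, at PRDM12, ASS1, FGF8 and PIPOX.

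FGF8, a secreted growth factor, had lower windows at chr10:103529989-103530389 and chr10:103535537-103535937. The first read 146.6 and 147.5 in DMSO and 85.0 and 105.2 at 2 h, a log2 change of -0.61 ± 0.08 (edgeR adjusted p = 2.52e-09; DESeq2 adjusted p = 0.000981). The second read 144.6 and 139.5, then 94.4 and 99.4, a change of -0.55 ± 0.08. Neither lost its call when a library was left out.

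TFAP2B, which encodes transcription factor AP-2 beta, had a lower window within 1 kb of its start at chr6:50787351-50787751. It read 56.7 and 52.3 CPM in DMSO and 40.2 and 38.8 at 2 h, a log2 change of -0.47 ± 0.12 (edgeR adjusted p = 0.0134). This call was lost whichever library was left out, and DESeq2 gave an adjusted p of 1. OLIG2, a neural lineage factor, had a called window on the side of OLIG1 that read 24.5 and 31.5 in DMSO and 15.4 and 15.6 at 2 h (log2 change -0.85 ± 0.17, edgeR adjusted p = 0.000677). That call was lost without DMSO B, and DESeq2 gave an adjusted p of 0.497. The window at GAS1, a growth arrest protein, with the larger change read 55.2 and 54.5, then 36.0 and 31.4 CPM. The calls at IGF1R, PRDM16, PITX3 and both at RERE were each lost in 3 or 4 of the 4 fits without a library.

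MYOD1, MYOG, FGFR4, MYCN and ALK, genes known in this tumour, had no called window by edgeR. At an unadjusted p under 0.05 by edgeR, 3 of 15 windows at MYOD1 and 6 of 28 at ALK were lower. At that threshold 2 of 14 at MYOG and 4 of 12 at MYCN were higher, and FGFR4 had 0 of 10 either way. Over all windows the shares were 6.42% lower and 4.71% higher. Summed signal at 2 h was 92.8% of DMSO at MYOD1, 91.0% at ALK, 105% at MYOG, 109% at MYCN and 94.9% at FGFR4. MYOD1, the myogenic master regulator, had 15 windows with log2 changes of -0.49 to 0.12, and summed CPM was 783.4 and 795.5 in DMSO and 734.2 and 730.8 at 2 h. At the start of MYOG, the window read 108.7 and 106.8, then 104.8 and 109.5 CPM, with a log2 change of -0.01 (95% interval -0.16 to 0.15). FGFR4, a receptor tyrosine kinase, read 83.7 and 89.2, then 79.8 and 94.7 at its start, a change of 0.03 (-0.15 to 0.20). MYCN gave 0.14 (-0.06 to 0.34) and ALK -0.10 (-0.37 to 0.17) at their starts. Each interval covers 0, and none shows that the level stayed the same.

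**Figure D3:**
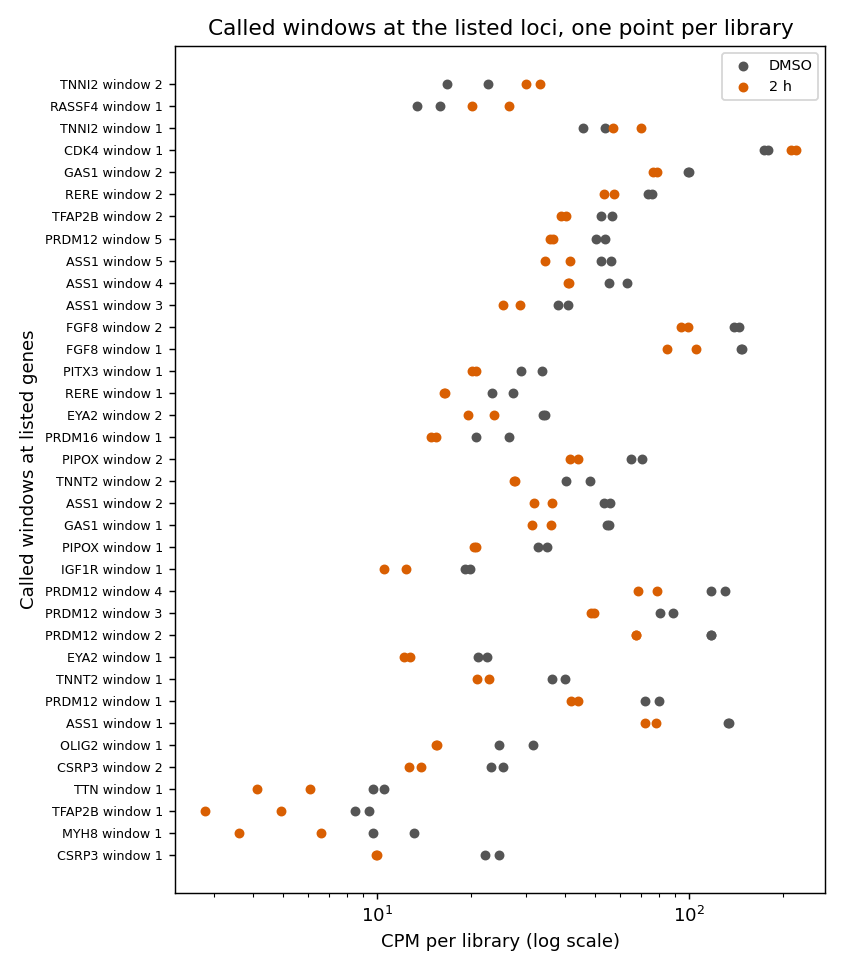
CPM of each library, on a log axis, for every called window at a listed gene, with DMSO and 2 h in separate colours. Windows of a locus are numbered from the most negative change, and no 2 h point overlaps the DMSO points of its window.

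The remaining lists are read against 1.03% lower and 0.194% higher over all windows. Of 167 windows at 19 placed myogenic regulators, edgeR called 3 lower (1.80%), at EYA2 and PITX3, and 0 higher. At an unadjusted p under 0.05 by edgeR, 11 of these 167 windows were lower and 12 higher. The shares over all windows at that threshold were 6.42% lower and 4.71% higher. The same list had 49.1% negative changes, against 49.2% of all windows. Of 152 windows at 22 sarcomere and neuromuscular genes, 6 were lower (3.95%) and 2 higher (1.32%), both shares above those over all windows. DESeq2 called none of these 6. CSRP3, a muscle LIM protein, had the largest of these: chr11:19207106-19207506 read 24.5 and 22.2 in DMSO and 9.9 and 10.0 at 2 h, a log2 change of -1.22 ± 0.20 (edgeR adjusted p = 4.88e-06; DESeq2 adjusted p = 0.0577). CSRP3 is also on the fusion target list. TNNT2, cardiac troponin T, had 2 lower windows only at a distance, 48.0 and 46.7 kb from its span. The one with the larger change went from 40.1 and 36.4 to 22.8 and 20.9 CPM. The TNNT2 start window gave 0.05 ± 0.12 and was not called. With a flank of 10 kb, 3 of 66 windows of this list were lower, at CSRP3 and TTN. Receptor kinase and ERK feedback genes had 1 lower of 138 (0.725%), at IGF1R, and immediate early and cell cycle genes 0 lower and 1 higher (0.645%) of 155, near CDK4. At an unadjusted p under 0.05 edgeR gave the latter list 8 lower windows and 10 higher ones of 155. These are read against the same 6.42% and 4.71%. Of the muscle and tumour markers, 5 of 8 had a window within 1 kb of the base searched. These were CHRNA1, FGFR4, MYCN, MYF5 and MYOG, and none was found for MYOD1, DES and MYF6. The base searched was the gene's start where its strand was at hand, as for 151 of 212 spans. Elsewhere it was the right-hand end of the span, which may not be the start. A start window at MYOD1, DES or MYF6 is thus not excluded. The window found for MYF5 had a DMSO mean of only 4.26 CPM. Of the markers of other cell types, 2 of 10 placed had a window, CD3E at 14.1 and KRT8 at 12.7 CPM, with the same limit. Of the 150 gene starts with a strand, 122 had a window within 1 kb.

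Higher windows were fewer. Their median signal, taken from the mean of all 8 libraries, was 27.4 CPM against 14.7 CPM for lower windows. That mean includes the treated libraries, so falls lower it and rises raise it. It does not rank the windows by DMSO signal. Summed DMSO signal was 14590 CPM over the 431 lower windows and 2354 CPM over the 81 higher ones. At the MIR1-1 host gene on chromosome 20, which also carries MIR133A2, the window at chr20:61155329-61155729 was called higher with a log2 change of 0.53 and a second at chr20:61164142-61164542 with 0.48. The first kept its call whichever library was left out, the second lost it in 3 of 4 such fits, and neither was called by DESeq2 (adjusted p = 0.0571 and 0.628) or against 1.2-fold. Over the 3 windows of this interval, summed CPM was 166.8 and 169.0 in DMSO and 216.6 and 218.5 at 2 h. These miRNAs are muscle-specific, and their mature sequences are shown as the products of this locus, from RefSeq GRCh38.p14, with the seed (bases 2 to 8) in capitals. The seeds differ.
hsa-miR-1-3p: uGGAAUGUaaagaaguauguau
hsa-miR-133a-3p: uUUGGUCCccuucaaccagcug

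Near TNNI2, fast skeletal troponin I, 2 of the 4 windows of a domain on chromosome 11 were called higher. Within 50 kb of TNNI2 these were 2 of 11 windows. The one beside TNNI2 gave 0.37 with an edgeR adjusted p of 0.0499, and lost its call with DESeq2's size factors and without the 4 h and 24 h libraries. The larger change lay in LSP1, a leukocyte-specific actin-binding protein, also within 50 kb of TNNT3, and read 16.8 and 22.7 in DMSO and 30.0 and 33.3 at 2 h (log2 change 0.69 ± 0.15, edgeR adjusted p = 0.00455; DESeq2 adjusted p = 0.723). RASSF4, a Ras association protein on the fusion target list, rose at its start from 15.9 and 13.4 to 26.4 and 20.1 CPM (0.64 ± 0.18, edgeR adjusted p = 0.0407; DESeq2 adjusted p = 1), a call lost in 3 of 4 fits without a library. RASSF4 entered only after the tolerance on gene spans was loosened. Under the tolerance first used, the list had 32 placed genes, 307 windows, 26 lower and 0 higher. In the domain of 8.91 kb at BRF1, of the RNA polymerase III machinery, 3 of 3 windows were higher. The first lay 3.5 kb outside the gene's span, and BRF1 windows beyond the domain are not counted. Summed CPM of the 3 was 135.5 and 159.7 in DMSO and 195.4 and 199.7 at 2 h. These calls were lost in 2 or 3 of the 4 fits without a library, with DESeq2 adjusted p-values of 0.882 to 1.

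Only genes with a strand at hand were searched for a called window within 1 kb of the start, so others may have one. The higher window beside TNNI2 lay 0.2 kb from that gene's span. Promoters of 3 listed genes with a called start window are shown because they span the direction of change: PRDM12 and TFAP2B lower, RASSF4 higher. Each runs from 250 bases before to 50 after the start (RefSeq GRCh38.p14, plus strand), with GTCAC, a paired-domain core, and ATTA, a homeodomain core, on either strand in capitals.
PRDM12: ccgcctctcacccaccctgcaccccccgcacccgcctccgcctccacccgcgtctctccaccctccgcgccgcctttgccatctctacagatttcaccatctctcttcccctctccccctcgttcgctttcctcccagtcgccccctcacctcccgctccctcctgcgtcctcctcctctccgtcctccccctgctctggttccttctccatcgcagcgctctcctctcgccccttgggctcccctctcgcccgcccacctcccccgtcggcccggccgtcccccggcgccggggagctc
TFAP2B: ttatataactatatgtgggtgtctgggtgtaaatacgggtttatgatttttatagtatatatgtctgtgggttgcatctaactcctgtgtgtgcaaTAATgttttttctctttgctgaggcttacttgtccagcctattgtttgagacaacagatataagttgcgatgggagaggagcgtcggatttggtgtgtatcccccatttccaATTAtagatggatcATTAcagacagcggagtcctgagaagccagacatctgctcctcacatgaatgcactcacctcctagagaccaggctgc
RASSF4: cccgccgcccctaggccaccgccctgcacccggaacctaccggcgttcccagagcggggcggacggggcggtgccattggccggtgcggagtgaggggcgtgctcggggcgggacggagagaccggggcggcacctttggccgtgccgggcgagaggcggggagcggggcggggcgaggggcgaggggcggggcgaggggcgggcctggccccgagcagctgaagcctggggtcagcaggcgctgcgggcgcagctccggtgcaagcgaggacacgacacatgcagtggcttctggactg
GTCAC was in 42.5% and ATTA in 50.2% of the 35116 promoters. None of the 3 holds GTCAC. TFAP2B holds ATTA at 3 places and the other promoters at 0. These letters are a description of the sequence and not of binding. The bases shown were set by each gene's start and not by the called windows. A called window of PRDM12 ended 0.7 kb before the gene, outside the bases shown.

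Losses were called at every signal strength. Windows were put in 10 classes of equal size by mean CPM of the 8 libraries. The weakest class had 32 lower and 3 higher calls, and the strongest 48 and 17. When the classes were made from the 4 h and 24 h libraries alone, the order of the lower counts turned, with 75 in the weakest class and 37 in the strongest. The median SE was 0.37 in the weakest class and 0.09 in the strongest, and the median log2 change of lower calls went from -1.38 to -0.37 with it. That of higher calls was 1.5 in the weakest class, from only 3 windows, and 0.37 in the strongest, from 17. Smaller changes could be called only where signal was strong, so the counts per class do not compare effect sizes. Of the lower windows, 203 lay below the median signal of 13.7 CPM, and of the higher windows 16.

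A larger share of windows was called in dense clusters. Windows were joined into regions at a fixed gap between 5 and 25 kb, the distances of the alternatives. Of windows alone in their region, 0.766% were lower and 0.0671% higher. In regions of 8 or more windows the shares were 1.49% and 0.745%. Median signal rose with density, from 10.8 to 24.3 CPM, and its part in the result was not tested. Among windows at or above the median signal, single windows had 0.612% lower and 0.0911% higher, and those in regions of 8 or more 1.72% and 0.912%. Of windows below that signal, 0.882% of single windows and 0.723% of those in regions of 8 or more were lower. The difference between density classes was not tested.

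**Figure D4:**
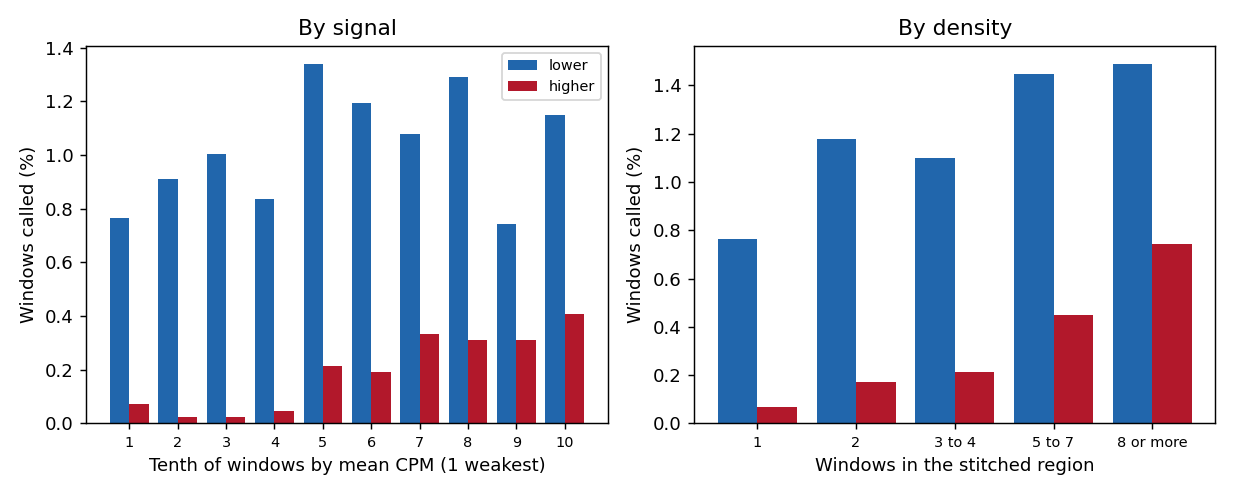
Bars give the percentage of windows called lower or higher, from 0, by class of mean CPM and by number of windows in the region. Lower calls go from 0.766% of single windows to 1.49% in regions of 8 or more windows, and higher calls from 0.0671% to 0.745%.

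Summed over regions, 399 of 26144 were lower (1.53%) and 124 higher (0.474%). The largest lower change by the naming rule was at CSRP3, chr11:19206070-19207506, with 47.4 and 47.3 CPM in DMSO and 23.7 and 22.6 at 2 h (log2 change -1.03 ± 0.14, edgeR adjusted p = 4.35e-10). At SPG7, a mitochondrial protease, the region chr16:89602855-89611380 went from 111.3 and 114.6 to 64.3 and 61.6 CPM (-0.85 ± 0.09). EPHB2, an ephrin receptor, and STX11, a syntaxin, had regions with changes of -0.88 and -0.82. DESeq2 called 38 regions lower and 4 higher.

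Windows close to a lower call mostly had negative changes too, also where they were not called themselves. Windows within 2 kb of a lower call had a median log2 change of -0.51 (n = 183, 96.7% negative), and the 113 of them not called had -0.39. The median was -0.31 at 2 to 5 kb, -0.11 at 5 to 10 kb, -0.08 at 10 to 50 kb and -0.03 at 50 to 100 kb. Over all windows 49.2% were negative. Around higher calls the median was 0.21 within 2 kb (n = 36) and 0.06 at 50 to 100 kb. Windows this close can share fragments, so the nearest class is not independent of the calls. With gaps of at most 100 kb, lower calls fell into 340 domains, of which 274 were single windows, and higher calls into 73, of which 67 were single.

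**Figure D5:**
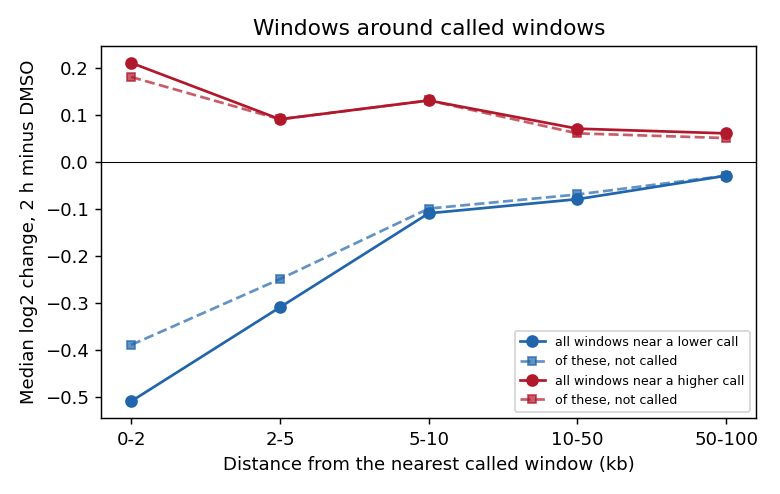
Median log2 change of windows by distance in kb from the nearest lower or higher call, for all such windows and for those not called. Near lower calls it goes from -0.51 within 2 kb to -0.03 at 50 to 100 kb.

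The naming rule took the 20 largest falls among windows at or above the median signal, with log2 changes of -1.07 to -0.83. Weaker windows fell further. In NELL1, chr11:20791098-20791498 went from 13.9 and 21.3 to 5.5 and 4.7 CPM, a log2 change of -1.80 ± 0.25 (edgeR adjusted p = 5.56e-08), and at chr6:89129934-89130334 signal went from 17.1 and 19.3 to 5.5 and 6.4 CPM. At chr4:86328270-86328670 the log2 change was -1.48 ± 0.19. These 3, all called by DESeq2 too, were chosen after their values were seen. The largest fall under the rule, chr1:209720421-209720821 on the side of CAMK1G, read 25.1 and 30.1 in DMSO and 14.6 and 11.9 at 2 h (edgeR adjusted p = 1.18e-05; DESeq2 adjusted p = 0.099). In FAM81A, chr15:59739917-59740317 went from 40.4 and 39.5 to 21.7 and 17.1 CPM. In EPAS1, a hypoxia-inducible factor, chr2:46560551-46560951 went from 26.8 and 22.2 to 13.2 and 10.7 CPM. It was not called by DESeq2 (adjusted p = 0.273). Near CCDC154, chr16:1480950-1481350 went from 79.1 and 72.4 to 36.0 and 39.9 CPM, a log2 change of -0.99 ± 0.11 and a DESeq2 adjusted p of 2.7e-05. Of the 20, 9 were also called by DESeq2.

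The 10 named higher windows had changes of 0.73 to 0.94, among them MEGF6 at chr1:3446127-3446527, from 8.0 and 10.5 to 16.0 and 19.2 CPM. Near ELN, the elastin gene, chr7:73424229-73424629 went from 11.1 and 14.2 to 21.2 and 22.8 CPM. All 10 lost their call by DESeq2 and under a test against 1.2-fold, and each lost it in at least 2 of the 4 fits without a library.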

How the data were processed

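The authors deposited raw read counts per peak window for 8 H3K27ac libraries, whole numbers per the file's values. Per the submitters' processing notes, the builds were hg19 and dm3 and the tools DESeq2, DiffBind, MACS2, Bowtie2 and Trimmomatic 0.32, without roles. No spike-in scaling was used here, so a change common to all windows cannot be seen after scaling. Columns were matched to groups by name, and 0 were left without a group. The 2 DMSO inputs were not analysed here. Nothing states that libraries came from separate cultures, so p-values measure only the spread between these libraries, which may be technical.

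Counts were tested in edgeR 4.0.16 (R 4.3.3): 276 windows were left out by filterByExpr (min.count 10, min.total.count 15), TMM scaling, 1 robust quasi-likelihood fit of all 8 libraries. The common dispersion was 0.00108, and SEs rest mostly on spread shared by all windows (median prior degrees of freedom 182). DESeq2 1.42.0 was an alternative. The chi-square per degree of freedom between libraries was 1.06 for DMSO and 1.21 for 2 h. The fit was also run on counts simulated with its own dispersion, which cannot show whether that dispersion is too low.

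The naming rule ranked called windows of at least median signal, with groups not overlapping, by size of change and took 20 falls and 10 rises. For regions of 2 or more windows it took 15 and 10. Domains were the 10 with most calls each way. Every listed gene's windows were also examined. Members, lists and rules were chosen with earlier results of these data known. Gene positions on hg19 were written from general knowledge and compared with RefSeq GRCh38.p14 by chromosome and span length. The tolerance was loosened from 1 kb to 1 kb or 5% after genes with called windows had failed it. Under the first tolerance 7 genes failed.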

Additional observations from a re-analysis of the deposited data

How the results depend on the processing

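DESeq2's Wald test gave 24 lower and 0 higher windows, 38 lower and 4 higher regions, 6 and 0 calls in the strongest signal class, 0 and 0 in the weakest, 4 and 0 in regions of 8 or more windows and 8 lower calls at fusion target loci. A test against 1.2-fold gave 97 lower and 0 higher windows (1519 and 803 at an unadjusted p under 0.05), 69 and 0 regions, 5 and 0, 8 and 0, 7 and 0, and 13. The cause was not tested. Leaving out each library gave 106 to 253 lower and 13 to 50 higher windows, 130 to 271 lower and 30 to 83 higher regions, 15 to 30 lower and 2 to 17 higher in the strongest signal class, 6 to 12 and 0 to 1 in the weakest, 8 to 34 lower and 1 to 13 higher in dense regions, and 12 to 18 lower at fusion target loci. A group left with 1 library is assumed to vary like the others. Size factors, total counts, no filter, the fit of DMSO and 2 h alone, stitching at 5 and 25 kb, the other density measure and a flank of 10 kb kept each count within 1.5 times. So did signal from the 4 h and 24 h libraries, except that the weakest class then had 75 lower calls. The first gene tolerance also gave 26 lower calls at fusion target loci and was added after seeing the data. No named window or region changed sign in the alternatives where it had a value. Stitching at 25 kb kept the bounds of 3 of 15 lower and 4 of 10 higher regions, and at 5 kb of 11 and 5. DESeq2 gave no adjusted p for 2 windows. Of the 26 lower windows at fusion target loci, 11 were called in every fit without a library. A replicate block on the column letter, added after seeing the data, gave 449 lower and 88 higher windows and 399 and 126 regions, and no named call was lost. Deviations of same-lettered libraries correlated at -0.03 to 0.05 across windows, and the letters could not be matched to the labels' numbers.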
